A study of Forsythia suspensa with 2 samples.

Results

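Of 81913 assembled transcripts of Forsythia suspensa, 210 were at least 100 times as abundant in the flower as in the leaf, and these flower-confined transcripts are described here. They were chosen by their counts in the same pair of libraries. The level of a transcript was its count plus 2, divided by the library total, and a transcript was taken when its flower level was at least 100 times its leaf level. Across all transcripts 0.256% met this rule, and because the rule used the flower and leaf counts themselves, those counts are given below as a description, with no test.

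Forsythia suspensa is a shrub of the olive family that flowers in early spring, before its leaves expand, and whose dried fruit is a traditional East Asian medicine. The series looks for genes of secondary metabolism in medicinal Forsythia, and its RNA was polyadenylated RNA sequenced with a strand-specific kit. The flower group was 1 flower library and the leaf group 1 leaf library, both from plants aged 2 years that grew outdoors and were sampled in April, with no treatment. The labels give neither the floral organs that were included nor the stage of the flowers, nor whether 1 plant gave both tissues or several plants were pooled. With 1 library per tissue there was no replicate and no measure of the spread between plants.

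A flower is built of several organs, and the leaf has none of them. In well studied flowering plants the anther, the pollen and the petal each use sets of genes that are silent or nearly silent in green tissue, among them genes for the pollen wall and pollen coat and for petal pigment and scent. Leaf messenger RNA is rich instead in genes of photosynthesis. The deposited files pair no identifier with a gene name, so neither the tissue labels nor any function could be checked against marker genes, and transcripts are called here by their length. The identifiers of the most abundant members are printed to anchor them. No sequence was among the files used here.

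Expected counts summed to 7442016 in the flower library and 7234013 in the leaf library. An expected count is the estimated number of sequenced fragments that came from a transcript, and all were whole numbers. In counts per 1000000 (CPM), 1 count stood for 0.134 CPM in the flower library and 0.138 CPM in the leaf library. The limit that a leaf count of 0 allows is 3 counts, or 0.415 CPM, so absence from the leaf was not shown for any transcript. In tissue RNA, fewer cells of a type and less RNA per cell cannot be told apart.

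The flower-confined transcripts were 0.256% of all transcripts and 2.93% of those with enough flower counts to meet the rule. The rule takes no transcript under 204 flower counts, while the median over all transcripts was 6 flower counts. A share of the flower counts above 0.256% therefore follows in part from the rule. Together they took 446144 flower counts and 1372 leaf counts. That was 5.99% of the flower library (exact 95% interval 5.98 to 6.01) and 0.0190% of the leaf library (0.0180 to 0.0200). Intervals here and below are exact Clopper-Pearson 95% intervals and cover counting error only. Per length, in transcripts per 1000000 (TPM), the members summed to 65670 TPM in flower and 178 TPM in leaf. The summed leaf level was 0.316% of the summed flower level (0.300 to 0.334).

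The same rule turned the other way found far fewer transcripts. Leaf level over flower level was at least 100 for 21 transcripts, which is 0.0256% of all, against 210 for flower over leaf. To meet the rule with no count in the other library a transcript needed 204 flower counts, or 193 leaf counts. Of the 7157 transcripts with at least 204 flower counts 2.93% were flower-confined, and of the 6667 with at least 193 leaf counts 0.315% were leaf-confined. The numbers of transcripts with enough counts were thus close in the 2 libraries. The 21 leaf-confined transcripts held 0.716% of the leaf counts.

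**Figure D1:**
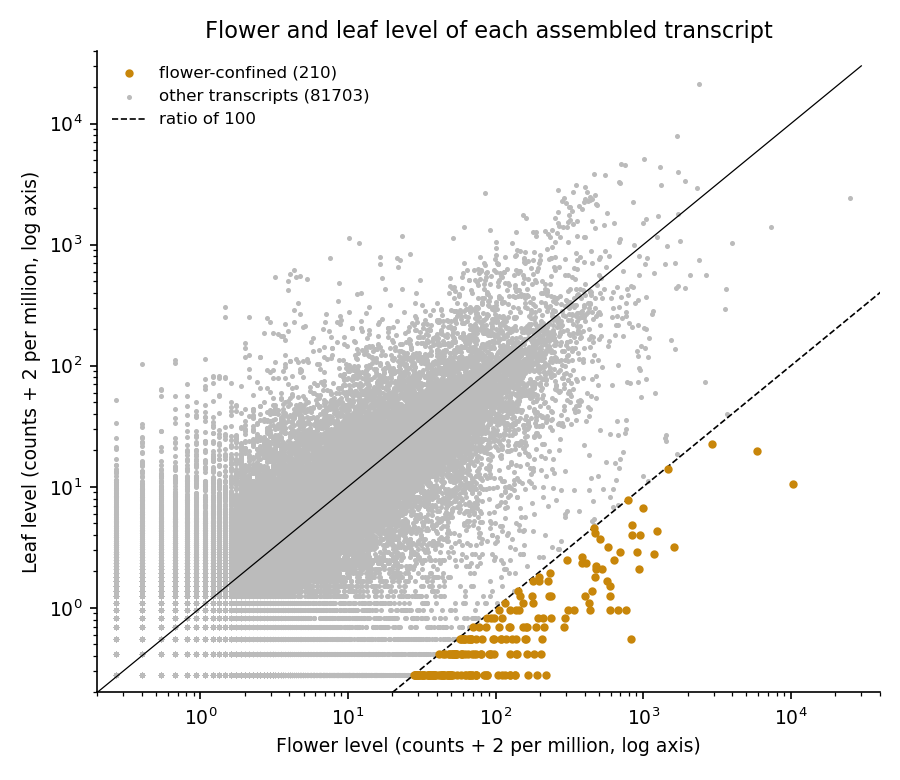
Flower level (x) and leaf level (y) of each of the 81913 transcripts, as counts plus 2 per 1000000 of the library total, both axes logarithmic. The solid line marks equal levels and the dashed line a flower level 100 times the leaf level. The 210 flower-confined transcripts lie on or to the right of the dashed line and start at 207 flower counts.

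Flower abundance was spread over 3 orders of magnitude and was dominated by a few transcripts. The flower level ran from 11.1 TPM to 13340 TPM with a median of 107 TPM, and the leaf level from 0 to 17.6 TPM with a median of 0.18 TPM. The 13 members with the most flower counts together reached 50% of the members' flower counts. The first alone held 17.3% and the first 2 together held 27.2%. Counts were also uneven among all transcripts with at least 204 flower counts, with a median of 402 and a highest of 187568. Such dominance is therefore not shown to be particular to the set. In flower, 8 members reached 1000 TPM, 28 reached 500 TPM and 107 reached 100 TPM. Among the 100 most abundant transcripts of the whole flower library by TPM, 22 were flower-confined, and 2 of the 10 most abundant were. The share was 0.256% over all transcripts and 2.93% over those with enough flower counts to meet the rule. A higher share at the top follows in part from the rule, which takes no transcript under 204 flower counts.

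TR32460|c0_g1_i1|c0_g1_i1, of 906 bases, was the most abundant transcript of the set. It had 13340 TPM in flower, from 77224 counts, against 13.6 TPM in leaf, from 74 counts. Its leaf level was 0.0986% of its flower level (0.0774 to 0.124). TR20653|c0_g1_i1|c0_g1_i1, of 1272 bases, was the next, with 5082 TPM in flower from 44047 counts and 17.3 TPM in leaf from 142 counts. Its leaf level was 0.332% of its flower level (0.279 to 0.391).

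The next members by flower TPM were alike in flower level and unlike in leaf level. A transcript of 398 bases had 2449 TPM in flower and 4.22 TPM in leaf, from 4394 and 7 counts. The transcript of 1390 bases had a similar flower level, 2249 TPM from 21581 counts, but 17.6 TPM in leaf from 160 counts, the most leaf counts of any member. Its leaf level was 0.763% of its flower level (0.649 to 0.891), while that of the 398-base transcript was 0.164% (0.0659 to 0.338). These shares come from the counts that chose both transcripts and describe these 2 libraries.

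Below them, a transcript of 468 bases had 1670 TPM in flower and 5.96 TPM in leaf, and one of 951 bases had 1424 TPM in flower and 3.10 TPM in leaf. A transcript of 890 bases had 1082 TPM in flower and 0.37 TPM in leaf, from 6126 and 2 counts. One of 1015 bases had 1054 TPM in flower and 2.07 TPM in leaf. Of these 4, the 890-base transcript thus had by far the lowest leaf level, although it had more flower TPM than the 1015-base one. The remaining 4 of the first 12 had 794 to 950 TPM in flower and 1.69 to 5.06 TPM in leaf. They were 1789, 612, 1047 and 572 bases long. The first 11 of these 12 transcripts were each the only flower-confined transcript of their component, a component being a group of transcripts that share the first number of the identifier.

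**Figure D2:**
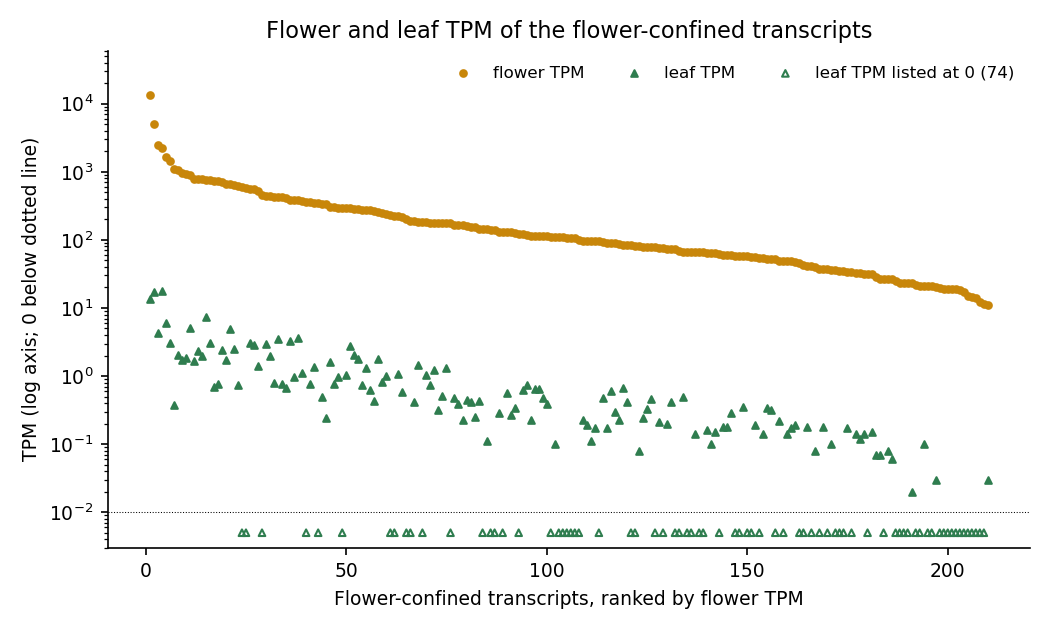
Flower TPM (circles) and leaf TPM (filled triangles) of the 210 flower-confined transcripts, ranked from the highest to the lowest flower TPM, on a logarithmic axis. Open triangles under the dotted line mark the 74 members listed at 0 in leaf. The flower values run from 13340 down to 11.1 TPM, and the leaf values stay at or under 17.6 TPM.

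The ratio itself was moderate for most members. With 2 counts added, 131 members lay between 100 and 200, 70 between 200 and 500, and 9 at 500 or above, and the median was 166. The largest ratio, 1489, belonged to the 890-base transcript, whose leaf level was 0.0336% of its flower level (0.00407 to 0.121). The second largest was that of the 906-base transcript. A transcript of 740 bases followed, with 1638 flower counts and 0 leaf counts. Against the 3 counts that a count of 0 allows, its flower level was at least 531-fold higher. The 1151-base transcript had 5669 flower counts and 5 leaf counts, and the 1050-base transcript 5008 flower counts and 5 leaf counts. In sixth place a transcript of 1966 bases had 1409 flower counts and 0 leaf counts. These 6 therefore include very abundant transcripts with 2 to 74 leaf counts, the 74 being those of the 906-base transcript, and less abundant ones with none.

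At the edge of the set, small differences in leaf count decided membership. Just inside it, transcripts of 515, 1305 and 1313 bases had ratios of 100.4, 101.1 and 101.5, on 308, 3429 and 520 counts in flower and 1, 31 and 3 counts in leaf. Just outside it, transcripts of 776, 723 and 1290 bases had ratios of 98.9, 98.5 and 98.0, on 405, 302 and 502 counts in flower and 2, 1 and 3 counts in leaf. With 1 leaf count more each of the 3 inside would fall out, and with 1 fewer each of the 3 outside would come in. Transcripts with many counts also lay near the limit. A member of 1992 bases had a ratio of 104.3 on 10939 flower counts and 100 leaf counts. A transcript of 1167 bases outside the set had 97.3 on 8007 and 78 counts. With an added count of 0.5 in place of 2 the rule took 704 transcripts, and with 5 it took 95. Where the exact lower bound of the ratio, with nothing added, had to reach 100, 95 of the 210 met it.

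Most of the flower-confined transcripts were assigned counts in the leaf library, called here a leaf trace. Whether such counts came from RNA of the leaf was not tested. At least 1 leaf count was assigned to 136 members (64.8%), and 74 (35.2%) had none. Any transcript with at least 204 flower counts and no leaf count meets the rule, so these 74 are all of that kind. Among the 7157 transcripts with at least 204 flower counts the median leaf count was 276 and the 25th percentile 150. Over all 81913 transcripts they were 5 and 1. The share with no leaf count is thus a product of the rule. A leaf count of 1 was found for 35 members, 2 for 24 and 3 to 9 for 43. A further 29 had 10 to 49 leaf counts and 5 had 50 or more. The 34 members with at least 10 leaf counts held 78.7% of the set's leaf counts. The 5 highest leaf counts were 160, 142, 100, 74 and 54, on transcripts of 1390, 1272, 1992, 906 and 2747 bases.

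The rule ties the leaf count of a member to its flower count. A transcript needed at least 204 flower counts to be a member with no leaf count, 307 with 1 leaf count and 410 with 2, so members with few flower counts could have almost none in leaf. Of the 83 members with fewer than 500 flower counts 55 had no leaf count. With 500 to under 1000 flower counts it was 14 of 48 members, with 1000 to under 5000 it was 5 of 61, and with 5000 or more it was 0 of 18. The 74 members with no leaf count had a median of 57.9 TPM in flower, and the 136 with a leaf count a median of 158 TPM in flower. Against 3 leaf counts the flower level of those 74 was at least 67.1-fold to 531-fold higher, with a median of at least 106-fold. These bounds lie partly under 100, because the rule adds 2 counts and the floor is 3.

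The leaf level of the most abundant members is given here as a share of their flower level. Among the 18 members with at least 5000 flower counts it ran from 0.0336% to 0.946% of the flower level, with a median of 0.328%. The lowest of these values was that of the 890-base transcript and the highest that of the 2747-base transcript. The upper end of this range was fixed by the rule, which keeps the share under about 1%.

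**Figure D3:**
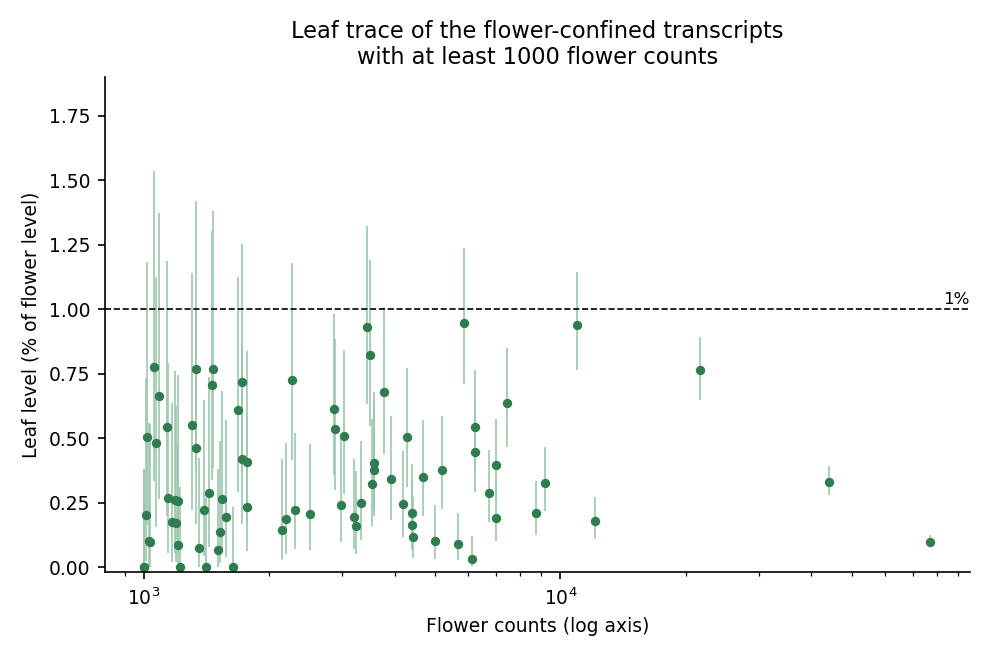
Leaf level as a percent of flower level (y) against flower counts (x, logarithmic) for the 79 flower-confined transcripts with at least 1000 flower counts. Bars are exact 95% intervals of counting error, and the dashed line is 1%. Of the 3 members with the most flower counts, the 1390-base transcript (0.763%) stands above the 1272-base one (0.332%) and the 906-base one (0.0986%).

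Flower-confined transcripts were more frequent among the more abundant flower transcripts. They made up 1.89% of the transcripts with 204 to under 500 flower counts, 2.88% of those with 500 to under 1000, 6.12% of those with 1000 to under 5000 and 15.9% of those with 5000 or more. The rule bears on this, because a transcript with few flower counts meets it only with almost no leaf count. Counting by TPM among those with at least 204 flower counts, the share was 1.24% at 10 to 50 TPM, 3.63% at 50 to 100 TPM, 8.50% at 100 to 1000 TPM and 15.4% at 1000 TPM or more.

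Length was not part of the rule, although a count grows with length. The flower-confined transcripts were 238 to 5851 bases long with a median of 1277.5 bases. All transcripts of the assembly had a median of 449 bases, and those with at least 204 flower counts a median of 1801 bases. The shortest member had 256 flower counts and 0 leaf counts, and was at 450 TPM in flower. The longest had 1033 flower counts and 1 leaf count, and was at 23.1 TPM in flower. By length class, 24 members had at most 500 bases, 52 had up to 1000, 94 had up to 2000 and 40 were longer. Of the transcripts with at least 204 flower counts, 14.6% of those of at most 500 bases were flower-confined, 5.22% of those up to 1000, 3.13% of those up to 2000 and 1.34% of the longer ones.

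How far the members were short depended on what they were set beside. At 204 to under 500 flower counts their median length was 1041 bases against 1797 bases for the other transcripts, and at 1000 to under 5000 counts 1354 against 1844.5 bases. At like flower TPM the medians lay closer. They were 1973 against 2072.5 bases at 10 to 50 TPM, 1254.5 against 1276.5 bases at 50 to 100 TPM and 949 against 1093 bases at 100 to 1000 TPM. At 1000 TPM or more the 8 members were the longer ones, with a median of 928.5 against 740.5 bases for the other 44 transcripts. At like counts a shorter transcript has a higher TPM by construction, because TPM divides the count by length. Chosen by TPM with 1 added, 97 transcripts met a ratio of 100 and their median length was 786 bases. That choice takes only transcripts of about 100 TPM or more in flower, which were short in general. Among those with at least 204 flower counts the median length was 1080 bases at 100 to 1000 TPM and 787 bases at 1000 TPM or more.

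**Figure D4:**
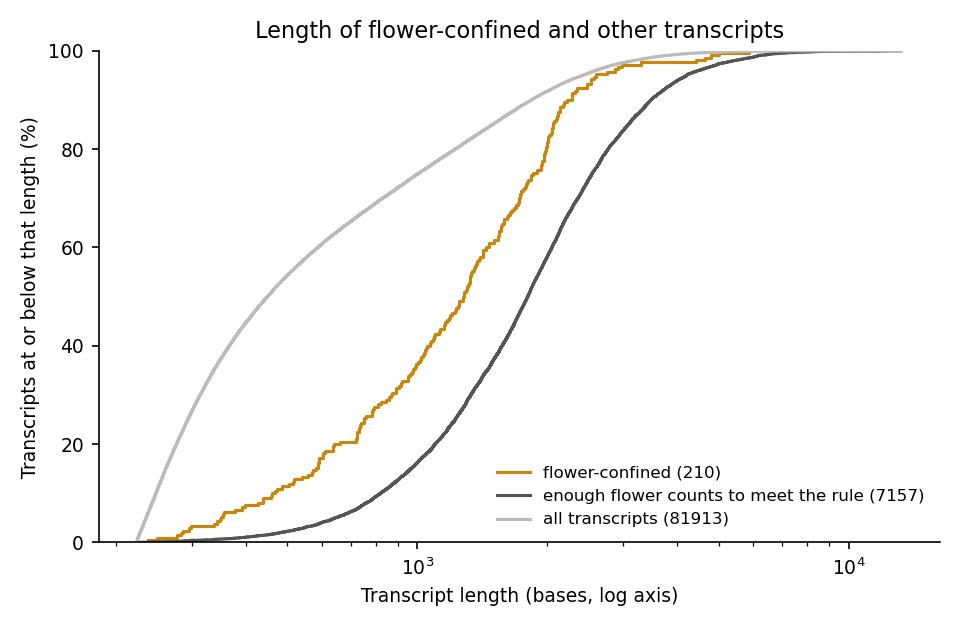
Share of transcripts (y) at or below a given length (x, logarithmic) for the 210 flower-confined transcripts, the 7157 transcripts with at least 204 flower counts and all 81913 transcripts. The flower-confined curve lies between the other two over most of the range, with a median of 1277.5 bases against 1801 and 449 bases.

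The identifiers place transcripts in loci within components. The 210 flower-confined transcripts fell into 194 loci and 174 components. In their locus 161 stood alone (76.7%), against 61.4% of the transcripts with at least 204 flower counts and 74.2% of all transcripts. At 204 to under 500 flower counts 74.7% of the members and 55.8% of the other transcripts stood alone in their locus. At 500 to under 1000 counts it was 77.1% and 66.5%, and at 1000 to under 5000 counts 73.8% and 72.8%. At 5000 counts or more it was 94.4% of the 18 members and 83.2% of the others. By flower TPM the share alone was 73.6% of the members and 53.5% of the others at 10 to 50 TPM, 84.0% and 74.8% at 50 to 100 TPM, and 72.7% and 78.6% at 100 to 1000 TPM. At 1000 TPM or more it was 8 of 8 members and 36 of the 44 others (81.8%). Members thus stood alone more often in every flower count class, though by little at 1000 to under 5000 counts. By TPM the order was the same except at 100 to 1000 TPM, where it was reversed. These differences were not tested.

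The other 49 members belonged to 33 loci of 2 or more transcripts. In 7 of these loci every transcript was flower-confined. The remaining 26 loci held 38 transcripts that were not members. Of these locus mates, 23 had fewer than 204 flower counts and so could not meet the rule, and 14 of those 23 had no leaf count. Their ratio was 50 to 100 for 18 of the 38, 4 to 50 for 13, 1 to 4 for 5 and under 1 for 2. All but 2 of the locus mates thus had a ratio above 1, but so did many transcripts at large. The median ratio was 47.1 for the mates, 1.11 over all transcripts and 1.43 for those with at least 204 flower counts. Some mates had too few counts to show a direction, such as 1 with 2 flower counts and 1 leaf count. Summed over the locus, 28 of the 33 loci had a ratio of at least 100.

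The most abundant members with a mate outside the set show how near the mates could be. The 1789-base transcript had 12097 flower counts and 21 leaf counts, and its 595-base mate 560 flower counts and 4 leaf counts. The 859-base and 823-base transcripts of 1 locus had 4194 and 2881 flower counts against 10 and 15 leaf counts, and the 243-base mate 764 flower counts and 6 leaf counts. In another locus of the same component, transcripts of 461 and 486 bases had 1211 and 1061 flower counts against 3 and 8 leaf counts. Their 364-base mate had 262 flower counts and 2 leaf counts, and a further member there, of 740 bases, 1638 and 0. That component is the one with the most members, described below. The 3 mates had ratios of 91.0, 93.1 and 64.2, so each fell short of the rule by a few leaf counts.

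In 5 loci the summed ratio fell under 100, and these were picked out after their values were seen. One held a flower-confined transcript of 1184 bases with 1470 flower counts and 11 leaf counts. Its mate of 1276 bases had 61 flower counts and 1645 leaf counts, and the mate of 1227 bases 545 flower counts and 792 leaf counts. Their locus as a whole had 2076 flower counts and 2448 leaf counts. So 1 of its 3 transcripts was nearly confined to the flower, while the locus summed to a leaf level of 121% of its flower level.

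A locus of 5 transcripts held members of 1943 bases, with 434 flower counts and 2 leaf counts, and of 2009 bases, with 392 flower counts and 1 leaf count. Their mate of 2024 bases had 534 flower counts and 4 leaf counts. The mates of 1501 and 1063 bases had 212 and 78 flower counts against 94 and 39 leaf counts. The 3 longer transcripts were thus nearly absent from leaf, and the 2 shorter ones were not. The other 3 loci summed to 629 flower counts and 87 leaf counts, 959 flower counts and 61 leaf counts, and 410 flower counts and 4 leaf counts. How reads were divided among similar transcripts of a locus was not tested.

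Some components held several flower-confined transcripts. There were 20 components with 2 or more members, with 56 members among them, and 6 with 3 or more. The component with the most members had 14 transcripts of 224 to 1153 bases in 7 loci, of which 9 transcripts met the rule. All its transcripts together had 19630 flower counts and 57 leaf counts, a leaf level of 0.299% of the flower level. The flower counts of the 9 members ran from 509 to 4194 and their leaf counts from 0 to 15. The 5 that were not members had 764, 262, 70, 42 and 8 flower counts against 6, 2, 0, 0 and 0 leaf counts. The leaf trace was thus small for the component as a sum, which rests mainly on members chosen for low leaf counts. Of these 5, 4 had fewer flower counts than any of its members. For those with 70, 42 and 8 flower counts the exact upper bound of the leaf level was 5.57%, 9.44% and 60.3% of the flower level. A small leaf trace was therefore not shown for them.

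A component of 9 transcripts with 6 members was the least seen in leaf of those with 3 or more members, relative to its flower counts. It had 4234 flower counts and 6 leaf counts, a leaf level of 0.146% of the flower level. The next lowest such component stood at 0.205%, on 4522 flower counts and 9 leaf counts. Few leaf counts set this order, which was not tested. In the component of 9 transcripts the most abundant, of 438 bases, had 1223 flower counts and 0 leaf counts, which is 580 TPM in flower. Of the 9 transcripts 7 had no leaf count. Its mate with the most leaf counts, of 872 bases, had 455 flower counts and 4 leaf counts and was not a member.

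In 2 further components all 3 transcripts were flower-confined. One had 4522 flower counts and 9 leaf counts over 3 loci, and the other 3530 flower counts and 11 leaf counts over 2 loci. A component of 4 transcripts with 3 members had 3262 flower counts and 17 leaf counts. The component of 8 transcripts with 4 members was different. Its member of 3298 bases had 2190 flower counts and 4 leaf counts, and a transcript of 3315 bases in another of its loci had 2162 flower counts and 616 leaf counts. Those 2 transcripts were alike in flower level, at 89.0 and 87.4 TPM in flower, but not in leaf, at 0.17 and 26.2 TPM.

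**Figure D5:**
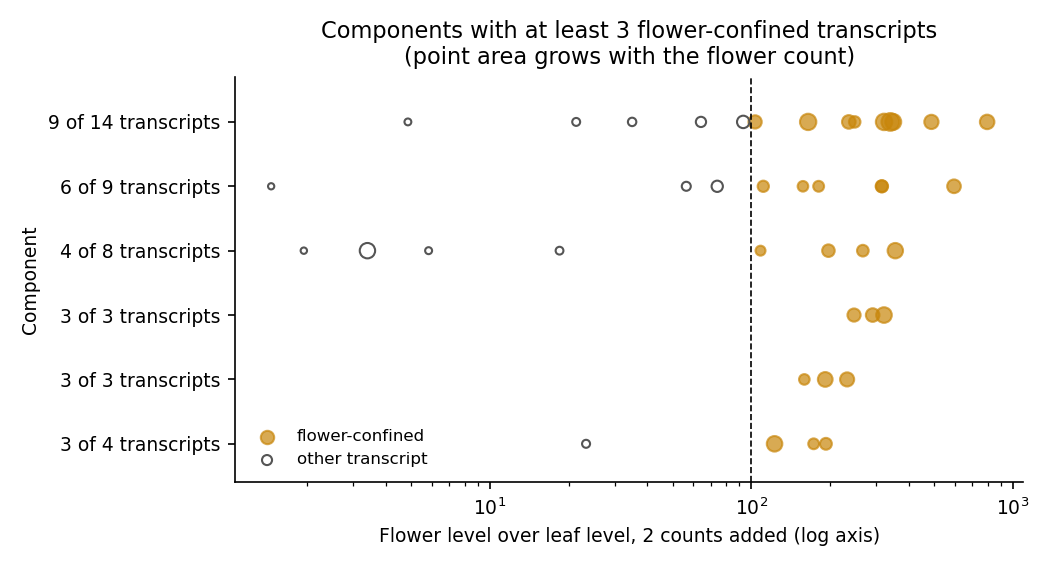
Flower level over leaf level with 2 counts added (x, logarithmic) of each transcript in the 6 components that hold at least 3 flower-confined transcripts, 1 row per component. Filled points are flower-confined, open points are other transcripts, point area grows with the flower count, and the dashed line is a ratio of 100. In the top row 9 of 14 transcripts lie beyond the line, and in the third row the large open point at 3.40 is the 3315-base transcript.

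The other 14 components with more than 1 member held 2 members each. In 4 of them these 2 were the only transcripts. Those 4 components had 2351, 2116, 1552 and 649 flower counts against 5, 11, 3 and 1 leaf count. Their low leaf counts follow from the rule, since they hold members only. Components of 9, 6 and 10 transcripts had the highest leaf levels of those with 2 members, and were picked out after their values were seen. They had 3743, 2643 and 999 flower counts in all against 777, 348 and 192 leaf counts. The remaining components had leaf levels of 0% to 1.41% of the flower level, apart from a component of 5 transcripts at 8.73%. Sharing a component with a flower-confined transcript thus did not always mean sharing its near absence from leaf.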

How the data were processed

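RNA of 1 flower and 1 leaf sample was measured. Trimmomatic and RSEM are the tools named, per the submitters' processing notes; the versions, the aligner, the assembler and the reference set are not given. The authors deposited, for each of 81913 transcripts, an expected count (whole in all, 0 with a fraction), a TPM and FPKM value normalised by effective length, and an isoform percent that was not used. The deposited series-wide FPKM table matched the per-library values for 210 of 210 members in each tissue, within 0.005.

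Transcripts were joined by identifier. Members had (count + 2) / library total at least 100 times higher in flower. Intervals are exact 95% intervals of a share or, for a leaf level as a percent of the flower level, of the leaf count conditional on the transcript's total with nothing added. Each tissue having 1 library, no test was made. PCR copies were not separated from molecules. The ratio step was checked on simulated counts with counting error only. Ratios well above and well below the limit were planted, in transcripts with high counts. Planted ratios near the limit, or in transcripts with few flower counts, were not covered. The members and the lists were chosen with earlier results of these data known. Named transcripts were the 12 highest by flower TPM, the 6 largest ratios, the 3 nearest the limit on each side, the shortest and longest, the 3 with most leaf counts, the 5 most abundant with a locus mate outside the set, and members sharing a component; the last are given by component, and identifiers are printed for 2. Alternatives were TMM (edgeR 4.0.16) and DESeq2 1.42.0 scaling, other added counts, TPM, FPKM, a 50 CPM minimum, other ratios and locus sums. Python 3.11.15, numpy 2.4.6, scipy 1.17.1, pandas 2.3.3, matplotlib 3.10.9 and R 4.3.3 were used.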

Additional observations from a re-analysis of the deposited data

How the results depend on the processing

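No paired analysis was possible because each tissue has 1 library, and no replicate could be left out. The number of flower-confined transcripts (210) was 201 with TMM scaling and 206 as locus sums. DESeq2 size factors were 1 for each library, which amounts to comparing raw counts, and with them the number was 216. It was 704 with 0.5 counts added, 95 with 5, 97 by TPM, 100 by FPKM, 474 at a ratio of 50, 79 at 200, and 95 by the exact lower bound, which was chosen after seeing the data. Their share of flower counts (5.99%) was 5.83% with TMM, 6.13% with DESeq2 size factors, 6.80% with 0.5 counts added, 5.17% with 5, 4.70% by TPM, 4.71% by FPKM, 5.79% at a minimum of 50 CPM, 8.83% at a ratio of 50 and 4.10% at 200. Without the most abundant member, also chosen after seeing the data, it was 4.96%. Members with no leaf count (74) numbered 492 with 0.5 counts added, 18 with 5, 29 by TPM, 31 by FPKM, 27 at 50 CPM, 180 at a ratio of 50 and 25 at 200. The median length (1277.5 bases) was 1020.5 with 0.5 counts added, 786 by TPM and 772 by FPKM. The share alone in their locus (76.7%) was 68.6% with 0.5 counts added. Of the 80 named transcripts, whose lowest ratio was 64.2 so that a change of direction was hardly possible, 31 had a log2 ratio outside its exact interval with 5 counts added, 33 by FPKM and 35 by TPM, and 0 with TMM, DESeq2 size factors or 0.5 counts added; none changed direction. The cause of these changes was not tested, apart from what each setting does by construction, since a smaller added count or ratio takes more transcripts. Depth limits most the members with fewer than 500 flower counts, where a few leaf counts decide membership.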

Other observations

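Just below the limit lay 264 transcripts whose flower level was 50 to 100 times their leaf level. They held 210627 flower counts and 2357 leaf counts, which is 2.83% of the flower library, had a median length of 1179.5 bases, and included 106 with no leaf count. In this band 7 transcripts had at least 5000 flower counts, and those named here were chosen after their values were seen. A transcript of 2528 bases had 27523 flower counts and 287 leaf counts, a leaf level of 1.07% of its flower level (exact 95% interval 0.952 to 1.21). A transcript of 527 bases had 4465 TPM in flower and 50.7 TPM in leaf, from 12537 and 133 counts, a leaf level of 1.09% (0.913 to 1.29). It shares its component with the 398-base flower-confined transcript, whose leaf level was 0.164% of its flower level (0.0659 to 0.338). These shares come from the counts that placed the 2 transcripts inside and outside the limit. Of the 264 transcripts, 34 belonged to a component that also holds a flower-confined transcript.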
